A study of Mus musculus with 60 samples.

Results

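The comparison described here is that of saline-injected mice with naive mice at 1 h, which covers the early effect of handling and injection on mRNA abundance in the striatum. Its members are the 3 saline arrays and the 3 naive arrays labelled 1 h, 6 of the 60 arrays of the series, read across all probes. All animals were male C57BL/6J mice of 8 to 10 weeks. Saline mice received a single i.p. injection of vehicle and were killed 1 h later. Naive mice received no injection and were killed at the matched time. The other groups at 1 h had received ketamine (20 mg/kg), memantine (15 mg/kg) or PCP (5 mg/kg), and the same 5 groups were also taken at 2, 4 and 8 h. Each array held striatal RNA pooled from 2 mice, so a replicate here is a pool of animals and not a single mouse.

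Being picked up and injected is a mild stressor that acts on the striatum along at least a pair of routes. Neuronal activity and arousal raise intracellular calcium and cAMP, and phosphorylated CREB and serum response factor then switch on immediate early genes such as Fos, Arc and the Egr family within minutes, without new protein synthesis. The stress axis releases corticosterone, which enters the brain and acts through the glucocorticoid receptor (encoded by Nr3c1) on genes such as Sgk1, Fkbp5, Tsc22d3 and Per1. MAPK phosphatases of the Dusp family and the inhibitor Nfkbia follow as negative feedback.

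The promoters of 3 immediate early genes are shown because CREB and serum response factor are known to act on such promoters through short motifs. Fos, Egr2 and Egr4 had positive differences at 1 h, described below, and none of them passed the threshold. Genes of the same class with little difference, such as Egr3 and Jun, are not shown. The sequences are the RefSeq windows of 250 bases before to 50 bases after a start site on GRCm38.p6. Each is read 5′ to 3′ on the strand of the gene. Capitals mark TGACGT on either strand, which is the core of the cAMP response element, and the CArG box, the binding motif of serum response factor. Where a gene has several windows, the one with the most matches is given. Fos lies at chr12:85473640-85473939 on the plus strand, the Egr2 window (1 of 5) at chr10:67537619-67537918 on the plus strand, and Egr4 at chr6:85513540-85513839 on the minus strand.
Fos: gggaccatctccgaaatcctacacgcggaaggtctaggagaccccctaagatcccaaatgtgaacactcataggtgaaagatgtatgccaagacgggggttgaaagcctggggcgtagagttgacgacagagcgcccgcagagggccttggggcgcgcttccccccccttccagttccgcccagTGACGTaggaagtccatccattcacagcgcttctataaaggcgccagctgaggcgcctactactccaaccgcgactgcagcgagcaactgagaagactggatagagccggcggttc
Egr2: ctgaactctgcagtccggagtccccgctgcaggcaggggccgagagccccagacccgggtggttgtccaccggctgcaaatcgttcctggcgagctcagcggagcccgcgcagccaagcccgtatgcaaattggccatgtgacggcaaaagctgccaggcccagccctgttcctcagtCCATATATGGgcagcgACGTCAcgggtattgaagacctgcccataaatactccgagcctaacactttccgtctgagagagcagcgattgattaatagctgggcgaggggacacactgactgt
Egr4: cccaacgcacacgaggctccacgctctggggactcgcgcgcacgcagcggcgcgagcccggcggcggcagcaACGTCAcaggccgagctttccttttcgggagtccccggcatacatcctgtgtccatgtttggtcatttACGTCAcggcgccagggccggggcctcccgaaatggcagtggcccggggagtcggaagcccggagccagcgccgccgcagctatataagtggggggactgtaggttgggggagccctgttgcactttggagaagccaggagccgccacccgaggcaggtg
TGACGT was found once in the Fos window, once in the Egr2 window and 2 times in the Egr4 window. The CArG box was found once, in the Egr2 window, where it starts at base 179 and the TGACGT match at base 195, counted from the 5′ end of the window. Of all 32851 windows of 300 bases, 7.51% held TGACGT on either strand and 1.63% held the CArG box. No overlap between the motifs was counted. These shares are per single window. The Egr2 window was picked out of 5 for its matches, so the shares are no like measure for it. A match describes the letters only, and a window without one says nothing about a factor.

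No probe passed the threshold between saline and naive at 1 h. Each value below is a log2 normalised intensity, and each difference is saline minus naive. Of 44236 probes tested, 0 were called by limma at an adjusted p under 0.05 (0% of the probes, smallest adjusted p = 0.489), and 1805 had an unadjusted p under 0.05 (4.08%), of which 948 were higher and 857 lower in saline. With 1 probe for each of 18936 genes, the median difference was 0.00 and the median size of a difference was 0.14 on the log2 scale. Only 29 genes (0.153%) differed by more than 1 on the log2 scale, in either direction. A probe of median precision had a standard error of 0.24 and a 95% interval of 0.48 to either side, and would have needed a difference of 1.34 to be called alone. Intervals given for single genes below are 95% intervals of the fit with no adjustment for the number of genes. For such a probe a smaller response was not detectable with 3 pools per group, and a missed threshold does not show that the groups were alike. An exact permutation test of 3 against 3 arrays cannot go below p = 0.10. The same fit called 0 probes between saline and naive at 2 h (0%), 115 at 4 h (0.26%) and 0 at 8 h (0%).

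The arrays themselves were examined first. Pairwise correlations among the 6 arrays over all probes lay between 0.939 and 0.976. Saline replicate 3 stood apart, with a median intensity of 438.8 units against 180.1 to 305 units on the other 5 arrays and a mean correlation of 0.944 with the other arrays against 0.964 to 0.969. The 6 arrays lay on 6 different BeadChips, so there is no comparison within a BeadChip. Without saline replicate 3, 0 probes were called by limma (smallest adjusted p = 1). Most markers of striatal projection neurons were bright. Rgs9, Ppp1r1b, Pdyn, Tac1 and Drd1, which mark these cells, had mean levels between 12.2 and 13.9 over the series, while Gpr6 (8.98) and Rasgrp2 (9.13) were lower and Adcy5 (6.59) was below the median of all probes, and the median of the 19 measured projection neuron markers differed by 0.04 between saline and naive.

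A few markers of tissue outside the striatum varied widely among the 6 arrays. Pmch, the precursor of melanin-concentrating hormone of the lateral hypothalamus, was at 8.05, 11.88 and 11.94 on saline replicates 1 to 3 and at 7.99, 7.94 and 11.20 on naive replicates 1 to 3. Thus it was high on 2 saline arrays and 1 naive array and low on the other 3. Hcrt, the precursor of the orexins of the same region, followed with 6.99, 9.31 and 10.63 in saline and 6.88, 7.28 and 8.75 in naive. Ttr, the transthyretin gene of the choroid plexus, was at 10.86, 10.32 and 10.47 in saline and at 11.10, 11.08 and 14.80 in naive, so naive replicate 3 carried the most. The mean score of the 10 choroid and ependymal markers ranged from -0.47 to -0.35 in saline and from -0.35 to 0.56 in naive, relative to the mean of all naive arrays. The score of the 10 thalamic and hypothalamic markers ranged from -0.66 to 0.57 in saline and from -0.67 to 0.46 in naive. The part of these tissues in the differences below was not tested, and with bulk RNA fewer cells of a type and less RNA per cell cannot be told apart.

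**Figure D1:**
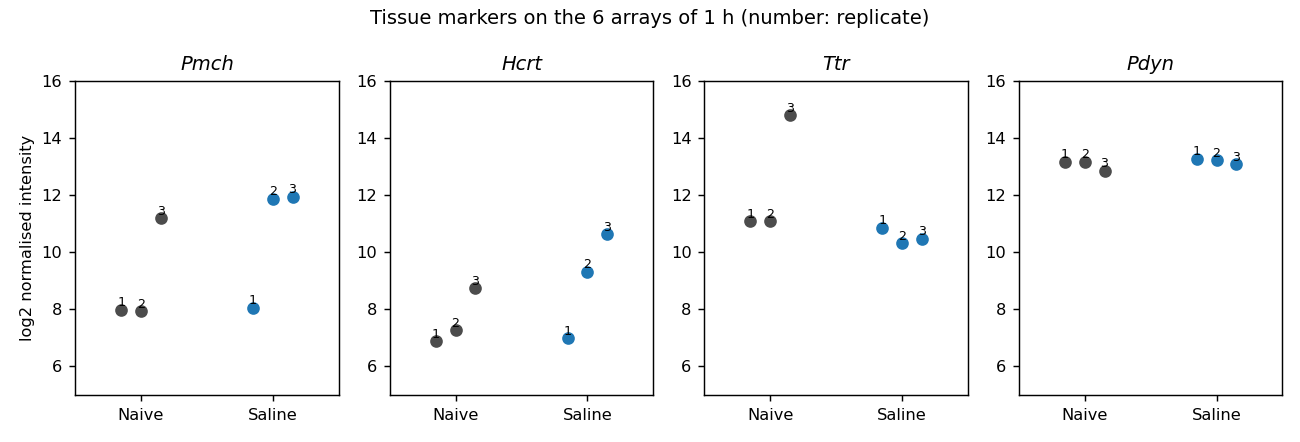
Levels (log2 normalised intensity, y axis) of 3 markers of neighbouring tissue and of the striatal gene Pdyn on the 3 naive and 3 saline arrays of 1 h, each point an array numbered by its replicate. Pmch and Hcrt were high on saline replicates 2 and 3 and naive replicate 3, Ttr was high on naive replicate 3 (14.80), and Pdyn stayed between 12.86 and 13.28.

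Among immediate early transcription factors, Egr4, Egr2, Fos and Egr1 had positive differences and none passed the threshold. Egr4, a zinc-finger factor of the Egr family, was at 12.01, 11.61 and 11.88 in the 3 saline pools and at 11.45, 11.02 and 11.19 in the 3 naive pools. All saline values lay above all naive values, and the difference was 0.62 on the log2 scale (95% interval 0.14 to 1.10, a 1.54-fold higher mean, limma adjusted p = 1). Egr1, a common marker of neuronal activity, was at 14.38, 14.26 and 14.17 in saline and at 14.15, 13.86 and 13.79 in naive. Its groups also did not overlap, although saline replicate 3 and naive replicate 1 were nearly level, and the difference was 0.34 (0.03 to 0.64, limma adjusted p = 1). With median scaling in place of quantile normalisation, which moved the median of all probes from -0.01 to -0.14, the Egr1 difference was -0.03. Under the same scaling Egr4 was at 0.35. With each of the 6 arrays left out in turn, Egr4 stayed between 0.52 and 0.73 and Egr1 between 0.27 and 0.44.

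Fos, the founding member of the AP-1 factors and the usual histological marker of activated neurons, was at 9.71, 9.59 and 9.32 in saline and at 9.22, 9.10 and 8.99 in naive. The groups did not overlap, with a difference of 0.44 (-0.04 to 0.91, a 1.35-fold higher mean, limma adjusted p = 1). It was between 0.35 and 0.55 with each array left out in turn, and 0.17 with BeadChip as a block. Egr2 was at 10.24, 9.36 and 9.07 in saline and at 9.09, 9.13 and 8.61 in naive. Its groups overlapped, since saline replicate 1 was far above the other saline pools and saline replicate 3 was below 2 naive pools. The Egr2 difference was 0.61 (0.14 to 1.09, limma adjusted p = 1) and 0.27 without saline replicate 1. Atf3, a stress-induced member of the ATF family, was at 7.07, 7.10 and 7.0 in saline and at 6.76, 6.70 and 6.38 in naive, near the median level of all probes (7.09).

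Other members of this class ranged from -0.52 (Ier2) to 0.42 (Fosl2). Egr3 differed by 0.05, Jun by 0.05, Srf (serum response factor itself) by 0.05 and Klf2 by 0.02, while Maff differed by -0.39 (-0.92 to 0.14). Junb was at 9.59, 9.77 and 9.09 in saline and at 9.19, 9.44 and 9.05 in naive, which overlap. Npas4, a factor induced selectively by neuronal activity, was at 8.87, 8.47 and 7.75 in saline and at 8.35, 8.64 and 8.41 in naive. This brighter Npas4 probe differed by -0.10, while a dimmer one differed by 0.40, both with overlapping groups. On the lower side, Ier2 was at 6.41, 6.37 and 6.84 in saline and at 7.03, 6.92 and 7.26 in naive, on a dim probe at the 25th percentile of level. The Nr4a1 probe lay at the 4.4th percentile and differed by -0.16 (-0.76 to 0.44), so this array gave little information on Nr4a1.

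Across the class, 25 of 26 listed immediate early transcription factors were measured. None was called (0% of all probes), 4 lay wholly above naive (Egr4, Atf3, Fos and Egr1) and 2 wholly below (Klf10 and Ier2). Over all genes tested, 3.6% lay wholly above and 3.99% wholly below. The median difference of the class was 0.05, with 15 of 25 members above 0. At an unadjusted p under 0.05, 3 members were higher and 1 lower, where 1.98% of all genes were higher and 1.76% lower. No p is given for the class, because its members were chosen with earlier results known.

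**Figure D2:**
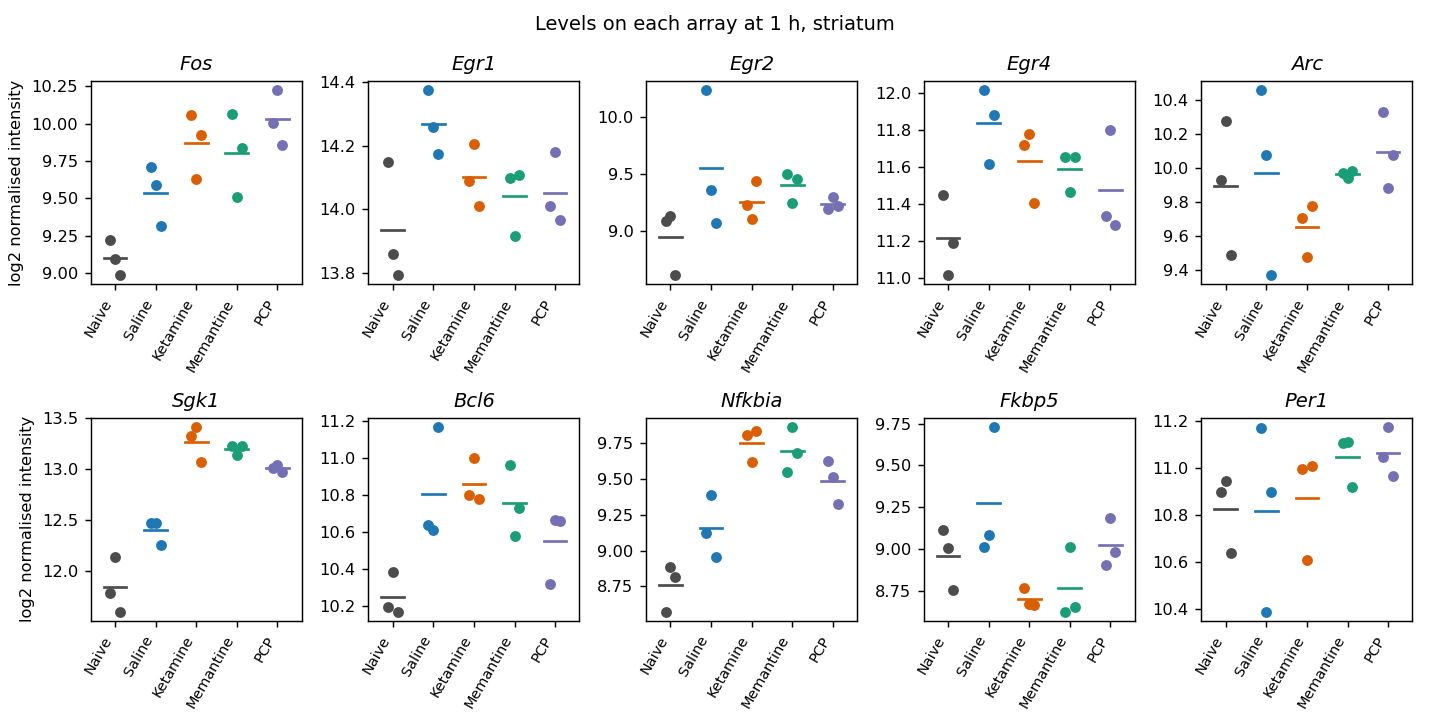
Levels (log2 normalised intensity, y axis, scaled separately for each gene) of 10 response genes on each array of the 5 groups at 1 h, with points for arrays and bars for group means (n = 3 pools). Saline Fos, Egr1, Egr4, Sgk1, Bcl6 and Nfkbia lay wholly above naive, and for Sgk1, Fos and Nfkbia the drug groups had higher means than saline.

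The effector genes of neuronal activity ranged from -0.65 (Inhba) to 0.44 (Tiparp). Arc, which encodes a synaptic protein that regulates AMPA receptors, was at 10.46, 10.08 and 9.37 in saline and at 9.93, 10.27 and 9.49 in naive. The Arc difference was 0.07 (-0.48 to 0.62), so changes of up to about 1.5-fold remain within its interval. Homer1, a scaffold of glutamate receptors, differed by 0.01, Bdnf, the neurotrophin gene, by 0.03, and Rgs4, a regulator of G protein signalling, by 0.10. Inhba, which encodes the inhibin and activin beta A subunit, was the lowest of the group at 8.71, 8.54 and 7.51 in saline and 8.91, 9.25 and 8.55 in naive. Its difference of -0.65 (-1.10 to -0.19) came with overlapping groups, and saline replicate 3 was its lowest array. Of 26 measured effectors, 2 lay wholly above naive (Tiparp, an ADP-ribosyltransferase gene, and Ptgs2, the inducible cyclooxygenase gene, both on dim probes) and 0 wholly below, where 3.6% of all genes lay wholly above and 3.99% wholly below. The median of the effectors was 0.06.

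MAPK feedback genes ranged from -0.49 (Spry4) to 0.33 (Spry2), with Spred2 at -0.31 and Dusp10 at 0.29. Dusp1, the phosphatase that inactivates p38 and JNK, was at 11.40, 11.06 and 10.91 in saline and at 11.08, 10.97 and 10.75 in naive, a difference of 0.19 (-0.15 to 0.53). Dusp6, the ERK phosphatase, differed by 0.20. Of the 14 measured members, only Dusp10 had groups that did not overlap, where 3.6% of all genes lay wholly above and 3.99% wholly below. The median of the list was 0.08.

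Targets of the glucocorticoid receptor differed by -0.37 (Pdk4) to 0.55 (Sgk1), and none passed the threshold. Sgk1, a serum and glucocorticoid-induced kinase gene, was at 12.47, 12.47 and 12.25 in saline and at 11.79, 12.14 and 11.60 in naive. The groups did not overlap, and the difference was 0.55 (0.10 to 1.00, a 1.47-fold higher mean, limma adjusted p = 1). Bcl6, a transcriptional repressor gene, was at 10.64, 10.61 and 11.17 in saline and at 10.20, 10.38 and 10.17 in naive. The groups did not overlap, with a difference of 0.55 (0.18 to 0.93, limma adjusted p = 1), and saline replicate 3 was its highest array. Nfkbia, the inhibitor of NF-kB, was at 9.12, 9.39 and 8.96 in saline and at 8.57, 8.89 and 8.82 in naive on its brighter probe, a difference of 0.40 (-0.10 to 0.89). A second, dimmer Nfkbia probe showed a difference of 0.00, so the pair of probes did not give the same picture. With median scaling, Sgk1 was at 0.26 and Bcl6 at 0.29. With each array left out in turn, Sgk1 stayed between 0.43 and 0.70 and Bcl6 between 0.37 and 0.65.

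Fkbp5, the co-chaperone that dampens the receptor, was at 9.01, 9.08 and 9.73 in saline and at 9.12, 9.01 and 8.75 in naive, so its mean difference of 0.32 (-0.09 to 0.72) came mostly from saline replicate 3. Tsc22d3, the glucocorticoid-induced leucine zipper gene, was at 11.83, 11.80 and 11.93 in saline and at 11.69, 11.82 and 11.82 in naive, a difference of 0.07 (-0.34 to 0.49). That was its brightest probe, and dimmer Tsc22d3 probes differed by 0.43 and -0.28, each with overlapping groups. Per1, a clock gene that is also a receptor target, was at 11.17, 10.39 and 10.90 in saline and at 10.90, 10.94 and 10.63 in naive. Its brightest probe differed by -0.01 (-0.37 to 0.35), while the next brightest differed by 0.30 with groups that did not overlap. Klf9 (0.02), Mt1 (-0.02), Cdkn1a (0.08) and Ddit4 (-0.11) were close to 0 on their brightest probes. Dimmer Cdkn1a probes differed by -0.04 and 0.23.

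Of 33 listed glucocorticoid targets, 32 were measured. None was called, 4 lay wholly above naive (Sgk1, Bcl6, Nfkbia and Plekhf1) and 0 wholly below, against the 3.6% and 3.99% of all genes given above. The median of the list was 0.04, with 19 of 32 members above 0. Nr3c1, the receptor itself, was at 7.06, 5.92 and 6.53 in saline and at 7.03, 7.35 and 7.32 in naive. The groups overlapped through saline replicate 1, and the difference was -0.73 (-1.30 to -0.16) at a level below the median of all probes. Nr3c2, the mineralocorticoid receptor gene, differed by 0.38 (-0.27 to 1.04).

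**Figure D3:**
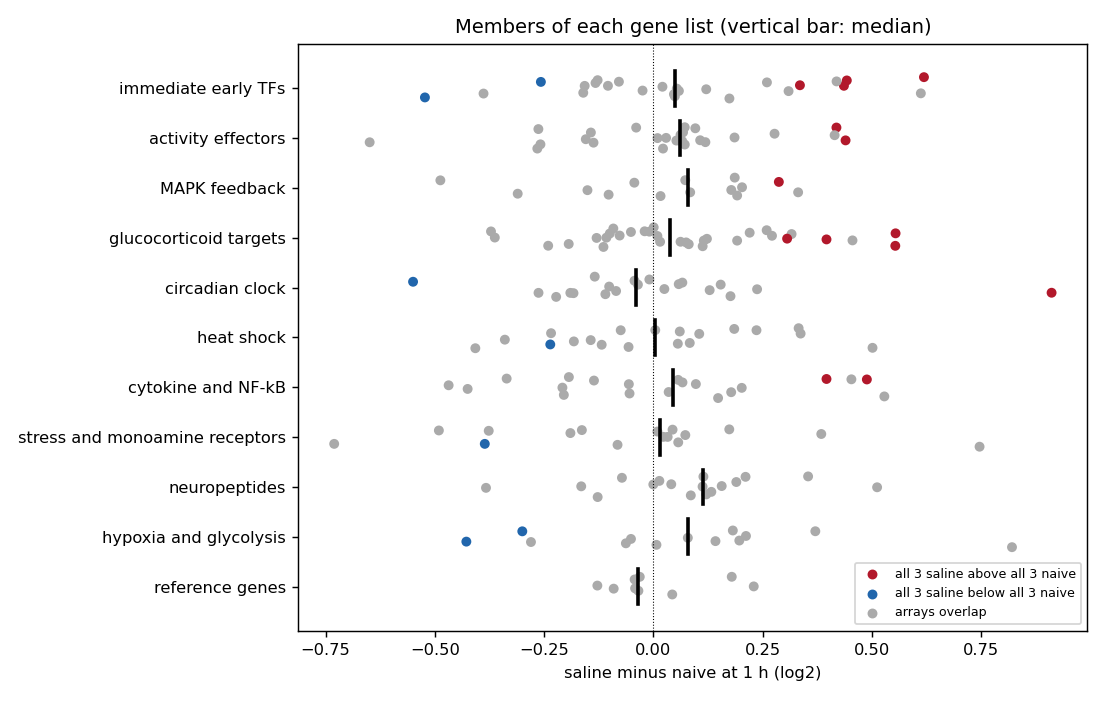
Differences between saline and naive at 1 h (log2, x axis) for the measured members of 10 response lists and the reference genes (y axis), each point a gene, red or blue where the arrays of the groups did not overlap and grey where they did. The black bars are list medians, which lay between -0.04 and 0.11.

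Circadian genes gave a median of -0.04 over 20 measured members. Bhlhe41, a repressor of the clock, was at 7.85, 7.21 and 7.25 in saline and at 6.66, 6.40 and 6.51 in naive, wholly higher by 0.91 (0.09 to 1.73). Hlf, an output factor of the clock, was at 7.10, 7.07 and 6.39 in saline and at 7.41, 7.61 and 7.20 in naive, wholly lower with a difference of -0.55 (-0.99 to -0.11). Bhlhe41 and Hlf were the only members with groups that did not overlap, where 3.6% of all genes lay wholly above and 3.99% wholly below. Core members differed less, with Arntl at 0.24, Clock at 0.18, Per2 at 0.15 and Cry2 at -0.22. Dbp, an output factor like Hlf, differed by -0.10 and Ciart by -0.26.

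Heat shock genes had a median of 0.00 over 19 members, with Hspa8 at 0.00 and Hsp90aa1 at 0.18. Hspa1a, an inducible HSP70 gene, was at 7.73, 8.53 and 8.09 in saline and at 7.30, 8.01 and 7.55 in naive, which overlap. Its difference was 0.50, the highest of the list, while Hspa1b differed by -0.34 and Hspb1 by -0.41. Of the heat shock genes, 0 lay wholly above naive and 1 wholly below, where the shares over all genes were 3.6% and 3.99%. Cytokine and NF-kB genes had a median of 0.05 over 20 members. Apart from Nfkbia, only Tnfaip3, the A20 deubiquitinase gene, lay wholly above naive, at 8.04, 7.98 and 8.19 against 7.72, 7.70 and 7.33. Over all genes, 3.6% lay wholly above. The cytokines themselves were dim, with Il1b at -0.47 (-1.12 to 0.18) and Tnf at 0.03.

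Receptors for stress hormones and monoamines had a median of 0.02 over 16 members. Htr4, a serotonin receptor gene, was at 7.95, 8.26 and 9.40 in saline and at 7.45, 8.06 and 7.86 in naive, so its difference of 0.75 (0.02 to 1.47) was carried most by saline replicate 3. Htr7, another serotonin receptor gene, lay wholly below naive by a small margin, at 6.89, 6.93 and 6.78 against 7.59, 6.94 and 7.24. It was the only receptor gene wholly below and 0 lay wholly above, where the shares over all genes were 3.99% and 3.6%.

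Neuropeptide precursors had a median of 0.11 over 17 members, which was -0.05 without saline replicate 3. Of them, 0 had groups that did not overlap, where 3.6% of all genes lay wholly above and 3.99% wholly below. Penk, which encodes enkephalin and marks indirect pathway neurons, differed by 0.11, and Pdyn and Tac1, which encode dynorphin and substance P in direct pathway neurons, differed by 0.12 and 0.11. Pomc was at 9.01 on saline replicate 2 alone and between 5.83 and 6.71 on the other 5 arrays. Pomc marks the hypothalamus. Pmch was high on saline replicates 2 and 3 and on naive replicate 3, but of these only saline replicate 2 had high Pomc. A link between them was not tested.

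Hypoxia and glycolysis genes had a median of 0.08 over 13 members. Bnip3, a mitophagy receptor gene, had the largest difference of the list at 0.82 (0.21 to 1.43), with 6.55, 7.67 and 7.11 in saline and 5.76, 6.37 and 6.74 in naive, which overlap. Pdk1, the pyruvate dehydrogenase kinase gene, was wholly lower, at 8.59, 8.52 and 7.73 against 8.72, 8.74 and 8.66. Egln3 was also wholly lower, with a difference of -0.30. Thus 0 members lay wholly above naive and 2 wholly below, where the shares over all genes were 3.6% and 3.99%. The reference genes had a median of -0.03 over 9 members. None lay wholly above or below, where the shares over all genes were 3.6% and 3.99%. Actb was at 14.01, 15.02 and 14.37 in saline and at 14.08, 14.23 and 14.40 in naive. Saline replicate 2 was its highest array, and the difference was 0.23 (-0.48 to 0.94).

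Over the 10 response lists, 198 distinct genes were measured and 116 of them were above 0. In all, 13 (6.57%) lay wholly above naive and 7 (3.54%) wholly below, where the shares over all genes were 3.6% and 3.99%. At an unadjusted p under 0.05, 10 (5.05%) were higher and 5 (2.53%) lower, where the shares over all genes were 1.98% and 1.76%. The immediate early and the glucocorticoid list each held 4 of the genes wholly above naive. The heat shock, receptor, neuropeptide and hypoxia lists held 0. The lists and their members were chosen with earlier results of these data known, so these shares do not test the lists. For 170 of the 198 genes the 95% interval lay wholly within a 2-fold change in either direction. Among markers of other cells, the 17 vascular genes had a median of -0.14 with 4 above 0, and the medians of astrocyte, oligodendrocyte and microglia markers were 0.03, 0.01 and -0.04.

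**Figure D4:**
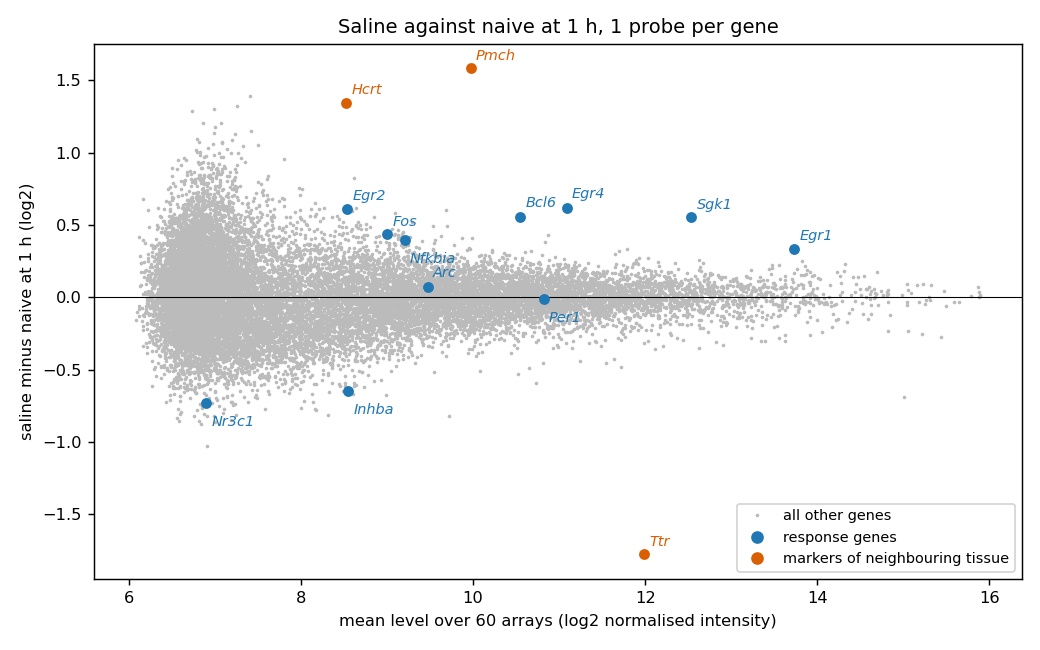
Difference between saline and naive at 1 h (log2, y axis) against mean level over the 60 arrays (log2 normalised intensity, x axis) for 18936 genes, with response genes in blue and markers of neighbouring tissue in orange. The spread was wide below a level of about 8, Pmch (1.58), Hcrt (1.34) and Ttr (-1.78) stood apart, and Egr4, Sgk1 and Egr1 lay at the upper edge for their level.

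By rule, the 10 higher and 10 lower genes of smallest p among those above the median level are named, and none passed. Mip, an aquaporin of the lens, had the largest difference of these at 1.39 (0.55 to 2.23), with 7.84, 7.66 and 8.73 in saline and 5.88, 6.75 and 7.43 in naive. Krr1, a ribosome assembly factor, differed by 1.12 (0.55 to 1.70, limma adjusted p = 0.918), at 8.07, 8.09 and 9.75 against 7.75, 7.17 and 7.62, so that saline replicate 3 was its highest array. The other higher genes were Hey2, Enox2, Chrna10, Trank1, Ccnl2, Olfr610, Megf11 and Olfr1132, with differences between 0.67 and 1.32. Olfr610 and Olfr1132 are olfactory receptor genes, and saline replicate 3 was the highest array for both.

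Among the 10 lower genes, Mroh1 was at 7.04, 7.09 and 7.0 in saline and at 7.36, 7.89 and 8.05 in naive, wholly lower with a difference of -0.72 (-1.08 to -0.37, limma adjusted p = 0.918). Xrcc6, the Ku70 subunit of DNA end joining, was at 8.34, 8.65 and 7.70 in saline and at 8.90, 8.87 and 9.06 in naive, a difference of -0.71 (-1.09 to -0.34). Rtn4ip1, a mitochondrial protein gene, was at 7.94, 7.47 and 7.39 in saline and at 8.38, 8.52 and 8.24 in naive. The other 7 were Heatr5b, C330013E15Rik, Tmem255b, Cfap97d2, Plekhg2, Aspscr1 and Ccdc50, with differences from -0.85 to -0.56.

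Of the 4 times, Egr4, Egr2, Egr1, Sgk1 and Bcl6 had their largest saline minus naive difference at 1 h, while Fos and Fgf11 had theirs at 4 h. The genes followed here were picked with their 1 h differences known. Such a choice alone favours a larger value at 1 h than at other times. The 1 h difference was compared with the mean of the differences at 2, 4 and 8 h, and 0 of 44236 probes were called by limma (0%, smallest adjusted p = 0.301, 1485 with an unadjusted p under 0.05). Egr4 differed by 0.62 at 1 h and by -0.08, 0.07 and -0.04 at 2, 4 and 8 h. Egr2 differed by 0.61 at 1 h and by -0.30, 0.28 and -0.05 later. Fos differed by 0.44 at 1 h and by -0.12, 0.52 and -0.41 later, so that its 4 h value was as large as that at 1 h. On saline replicate 3 of 4 h the mean score of the immediate early list was 0.29, against -0.163 and -0.128 on replicates 1 and 2. That array also had the lowest mean correlation with the other arrays of the series (0.934). Its part in the 4 h values of Fos and Egr2 was not tested. Sgk1 differed by 0.55, 0.49, 0.03 and -0.10 at 1, 2, 4 and 8 h. Bcl6 differed by 0.55, 0.20, -0.17 and -0.10. Fgf11, a fibroblast growth factor homologous factor that binds sodium channels, was at 7.63, 7.42 and 7.98 in saline and at 7.26, 7.39 and 6.47 in naive at 1 h. The Fgf11 difference was 0.63 at 1 h and 0.60, 0.98 and 0.89 later, so it was higher in saline at all 4 times without passing the threshold, and its 1 h value was 0.35 without naive replicate 3.

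The genes of smallest p in the comparison with later times were Mup3, Clca4a, Gmnc, Kl, Megf11 and Gsc. Mup3, a major urinary protein gene, was at 7.74, 6.99 and 7.97 in saline and at 6.50, 6.41 and 6.60 in naive, a difference of 1.06 (0.61 to 1.52, limma adjusted p = 0.489). At 2, 4 and 8 h the Mup3 difference was -0.23, -0.36 and -0.18. Of the 6 probes ranked here, only that of Megf11 lay above the median level over the series. Kl has a brighter probe, in the choroid and ependymal list, and its difference of -0.29 at 1 h is opposite in sign to the 0.85 of the probe ranked here.

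The naive arrays were not flat over the 4 times, and the choice of naive arrays bears on these values. Egr2 in naive mice had means of 8.95, 9.08, 7.90 and 8.15 at 1, 2, 4 and 8 h, and Fos had means of 9.10, 8.98, 8.22 and 8.68. Thus both were lower in naive mice at 4 h than at 1 h. Against the 12 naive arrays of all times, Egr2 at 1 h was higher by 1.04 (limma adjusted p = 0.028), Fos by 0.80, Egr4 by 0.82 and Egr1 by 0.56. In that setting, 2 probes were called, Egr2 and an unnamed probe. In that setting the injection and the time of day cannot be told apart.

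**Figure D5:**
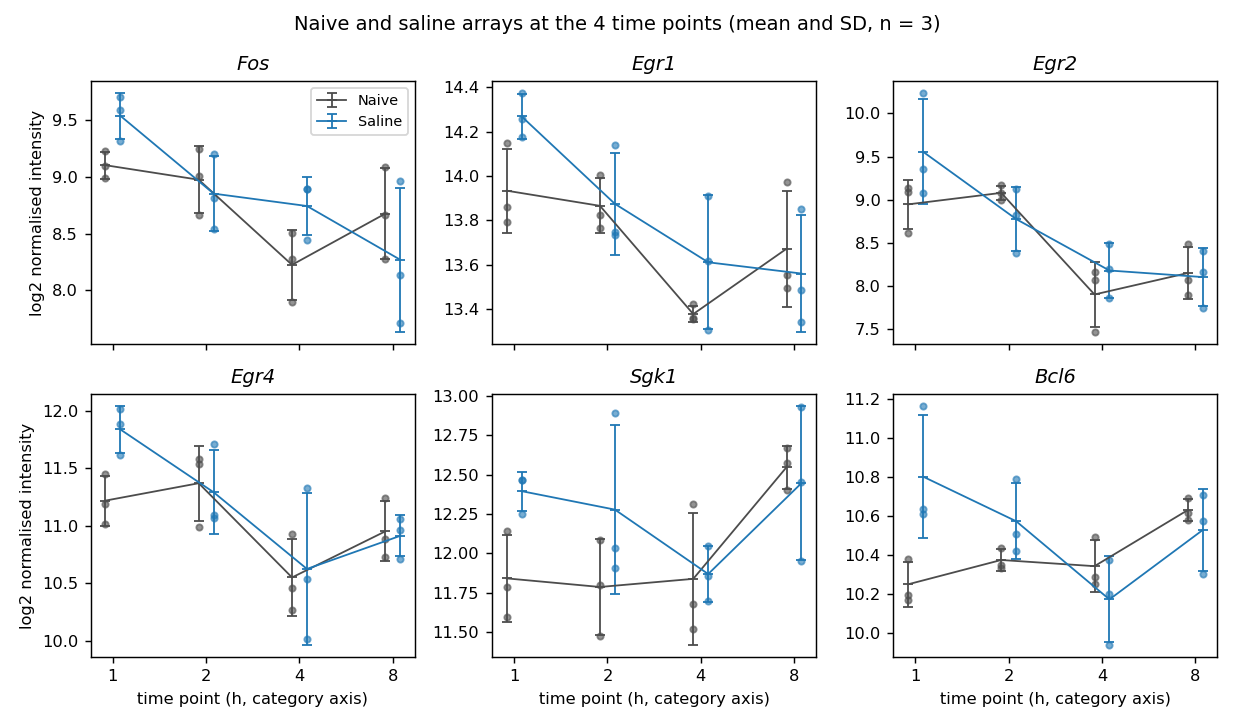
Levels (log2 normalised intensity, y axis) of 6 genes in naive and saline mice at 1, 2, 4 and 8 h (x axis, evenly spaced categories), with points for arrays and bars for mean and SD (n = 3 pools). Saline lay above naive at 1 h for each of the 6 means, and for Egr2 the means of saline and naive were 9.56 and 8.95 at 1 h and 8.18 and 7.90 at 4 h.

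Injection with a drug was compared with the same naive arrays at 1 h, so the values below share their control with those of saline and are given side by side only. Ketamine against naive gave 2 called probes (0.00452%), Sgk1 and Txnip, memantine gave 1 (0.00226%), Sgk1, and PCP gave 1 (0.00226%), Klf2. Sgk1 was higher than naive by 0.55 with saline, 1.43 with ketamine (limma adjusted p = 0.00308), 1.35 with memantine (limma adjusted p = 0.00936) and 1.16 with PCP (limma adjusted p = 0.0887). Nfkbia was higher by 0.40, 1.00, 0.94 and 0.73 and Fos by 0.44, 0.77, 0.70 and 0.92 in the same order. Klf2 differed from naive by 0.02 with saline and by 0.65, 0.79 and 1.34 with ketamine, memantine and PCP. For Egr4 the order ran the other way, with 0.62, 0.42, 0.37 and 0.26, and for Egr1 it was 0.34, 0.17, 0.11 and 0.12. Bcl6 differed by 0.55, 0.61, 0.51 and 0.30. The medians of the glucocorticoid list were 0.04 with saline and 0.28, 0.26 and 0.23 with ketamine, memantine and PCP. The differences between saline and the drugs were not tested here.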

How the data were processed

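Striatal RNA pooled from 2 mice per array was run by the authors on Illumina MouseWG-6 v2 BeadChips, 3 arrays for each of 20 groups. The deposited signal table holds linear intensity values that the authors exported without normalisation, with no detection p. A further table of log2 values, made by the authors with beadarray (background subtraction, quantile normalisation), served as an alternative. With limma 3.58.1 (R 4.3.3), intensities were normexp-corrected (offset 50) and quantile-normalised before log2 transformation. Probes above the 25th percentile on at least 3 arrays were kept (44236 of 45281), since no detection p was given. Of all probes, 34885 had 1 gene symbol, 18 several and 10378 none.

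All 60 arrays entered one lmFit and eBayes model of 20 group means (40 residual and 7.24 prior degrees of freedom), with Benjamini-Hochberg adjustment over the probes kept and a threshold of 0.05. The code was tested on simulated data. Gene lists used the brightest probe of a gene. By rule, named genes were the 10 higher and 10 lower genes of smallest p above the median level, a core set taken from the study and from knowledge of the tissue, the 2 highest and 2 lowest members of each list and 6 genes of smallest p for 1 h against later. Other list members named in the text were chosen after their values were seen. The members, lists and rules were chosen with earlier results of these data known. The number of arrays limits the precision. The study describes the 3 arrays of a group as biological replicates. Alternatives were the authors' log2 values, no background correction (offset 16), median scaling, 2 other filters, BeadChip or replicate number as a block, trended and robust variance, array weights, fewer arrays in the fit, the naive arrays of all times, later times without 4 h, the mean over the probes of a gene, and each array left out.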

Additional observations from a re-analysis of the deposited data

How the results depend on the processing

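No probe was called at 1 h by limma with the processing described above or in 12 of the 13 alternatives other than leaving out an array, with smallest adjusted p between 0.386 and 1. The exception was the naive arrays of all 4 times as control, with 2 probes. Leaving out 1 array gave between 0 and 1 called probes, the 1 being Mup3 without saline replicate 2 (limma adjusted p = 0.0357), and the comparison of 1 h with later times likewise gave between 0 and 1, again only without saline replicate 2. Of 129 named genes, 16 changed sign with median scaling, 8 with BeadChip as a block, and 8 with the naive arrays of all times. Leaving out 1 array changed the sign of between 4 and 11, the most without naive replicate 2 (11), saline replicate 2 (10) and saline replicate 3 (9). Deviations from the group means correlated by 0.0552, 0.153 and 0.168 between saline and naive arrays of the same replicate number. Between arrays of different numbers they correlated by -0.158 to 0.0487, so those of the same number were the higher ones. The main fit did not take the numbers as pairing, and a shared structure was not tested beyond the replicate block. With that block 0 probes were called at 1 h, 0 against later times, and 0 named genes changed sign.

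Median scaling moved the median of all probes to -0.14, and the list medians with it, to -0.12 for immediate early factors, -0.17 for activity effectors, -0.14 for MAPK feedback, -0.10 for glucocorticoid targets, -0.20 for the clock, -0.21 for heat shock, -0.11 for cytokines, -0.13 for stress and monoamine receptors, -0.17 for neuropeptides, -0.18 for hypoxia, -0.33 for reference genes, -0.24 for projection neurons, -0.19 for interneurons, -0.20 for cortical neurons, -0.29 for astrocytes, -0.31 for oligodendrocytes, -0.21 for microglia and -0.24 for vascular genes. Relative to the shift of all probes, reference genes were therefore lower, and so were oligodendrocyte, astrocyte, projection neuron and vascular genes. Glucocorticoid targets were near the shift, as were immediate early factors, MAPK feedback, cytokines and the receptors. BeadChip as a block gave -0.0345 for MAPK feedback, -0.0353 for neuropeptides, -0.19 for cortical neurons and -0.64 for choroid. The naive arrays of all times gave -0.11 for stress and monoamine receptors, 0.00108 for neuropeptides and -0.038 for vascular genes. Array weights gave 0.00827 for hypoxia, and the mean over the probes of a gene gave 0.00702 for hypoxia and -0.0191 for oligodendrocytes. Leaving out 1 array moved the medians within -0.111 to 0.0149 for the clock, -0.0556 to 0.119 for cytokines, -0.12 to 0.0859 for stress and monoamine receptors, -0.0506 to 0.131 for neuropeptides, -0.0688 to 0.102 for hypoxia, -0.051 to 0.000889 for oligodendrocytes and -0.187 to 0.0113 for vascular genes. The cause of these moves was not tested beyond the construction of each alternative.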
